A study of Homo sapiens with 8 samples.

Results

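The response to diclofenac was followed on the 4 arrays whose labels name the leukemia line HL-60, out of 8 arrays in the series. Membership came from the sample labels alone, and all 22215 probe sets that are not array controls were used. Diclofenac is a non-steroidal anti-inflammatory drug that blocks the cyclooxygenases. Cells on 2 arrays had received 100 µM diclofenac and cells on 2 arrays had received its solvent DMSO, in both cases for 48 h in RPMI-1640 medium with 10% fetal bovine serum. The labels call the 2 arrays of a group biological replicates and describe HL-60 as a promyelocytic leukemia line. They do not say how the cultures were kept apart, so p-values measure the spread between these arrays, which may be partly technical. The other 4 arrays carry the same treatments of THP-1, an acute myeloid leukemia line, and enter below where the lines are compared.

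Promyelocytes are neutrophil precursors that fill their primary granules with proteases and peroxidase, and HL-60 is known as a line arrested near that stage. When amino acids run short or another stress kinase is active, translation of the transcription factor ATF4 increases. ATF4 dimers bind C/EBP-ATF response elements (CARE) near genes for amino acid synthesis, amino acid uptake and tRNA charging. PLIN2 and FABP4, used below, belong to lipid storage and transport, and HMOX1 breaks down heme.

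The deposited intensities had a median of 115.4 and 111.7 on the diclofenac arrays and of 150.3 and 117 on the DMSO arrays. Background on an array was set by 27 probe sets for Bacillus transcripts, which have no target in human RNA, at their 95th percentile. It was 45.1 and 42.6 with diclofenac, against 60.2 and 51 with DMSO. DMSO replicate 1 had the highest background, with a control median of 24.6, whereas the other 3 arrays had 6.5 to 8.7. Between 66.58% and 69.21% of probe sets lay above background. Across probe sets the diclofenac arrays correlated at 0.9817 with each other and the DMSO arrays at 0.9773, while correlations between treatments were 0.9722 to 0.9817. Treatment thus did not set the arrays apart as a whole. The number of arrays limits the precision.

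Marker genes did not all fit the line named in the labels. The peroxidase gene MPO, which is known to be abundant in HL-60, had an intensity of 61.2 and 57.8 on the diclofenac arrays, against 41.7 and 40.6 on the DMSO arrays, where neither value was above background. A second MPO probe set was at 9.5 and 9.4, against 8 and 2.3. CDKN2A, which HL-60 is known to have lost, was at 314.6 and 308.8 with diclofenac and at 362.9 and 312.7 with DMSO, above background on all 4 arrays. Other granule genes were bright, and the protease gene ELANE had 11923 and 14845 with diclofenac, against 12446 and 12838 with DMSO. Of 7 promyelocytic markers measured, 6 were above background on all 4 arrays, and their summed intensity was 35953.1 to 40828.8 with diclofenac, against 40903.5 to 42631.5 with DMSO. Of 6 monocytic markers 4 were above background on all 4 arrays, CSF1R, FCN1, CD4 and MEIS1, and CD14 on none. Monocytic markers summed to 1814.3 to 1855.6 with diclofenac, against 1688.4 to 1755.2 with DMSO. All 3 erythroid markers measured were above background on all 4 arrays, with sums of 358.5 to 421.2 with diclofenac, against 375.9 to 561 with DMSO. Epithelial markers summed to 56.9 to 96.2, against 82.1 to 127.4, and 3 of 4 were above background on no array. Lymphoid markers summed to 93.3 to 188.8, against 160.5 to 182.5. On the arrays labelled THP-1 the promyelocytic sums were higher, at 45253.4 to 63021.9, and the monocytic sums lower, at 1313.7 to 1620.5. The promyelocytic and monocytic sums therefore do not mark the arrays labelled HL-60 as the more promyelocytic line. Because MPO and CDKN2A went against the label, the samples are called the arrays labelled HL-60.

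**Figure D1:**
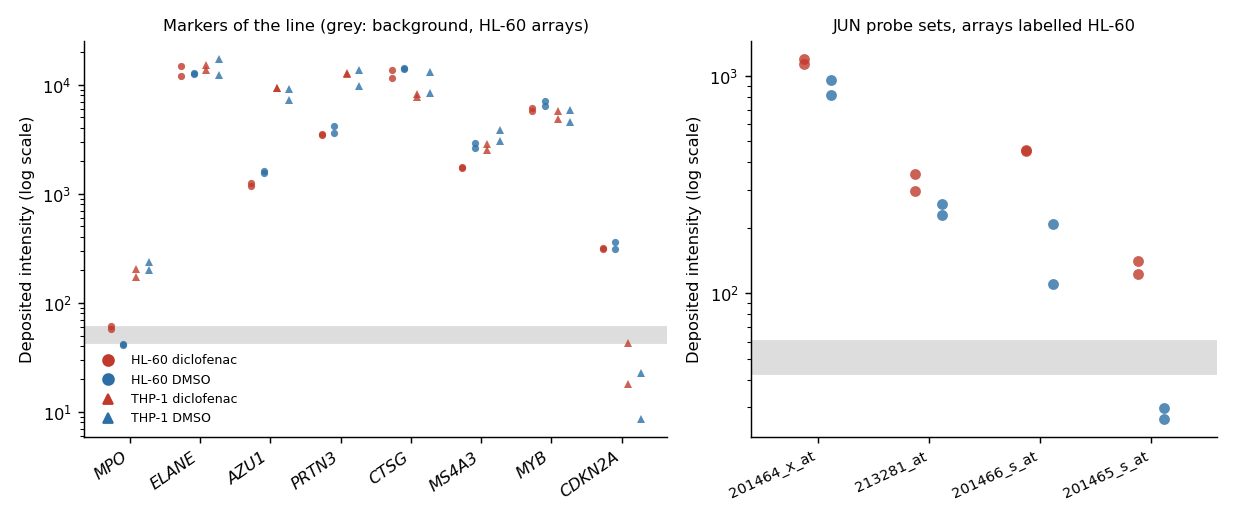
Left, deposited intensity (log scale) of 7 promyelocytic markers and CDKN2A on each array, circles for arrays labelled HL-60 and triangles for THP-1, red for diclofenac and blue for DMSO, with the range of the background of the HL-60 arrays in grey. Right, the 4 JUN probe sets on the arrays labelled HL-60, diclofenac left of DMSO. MPO lies at the background on the HL-60 arrays, CDKN2A lies above it there, and the size of the JUN difference depends on the probe set.

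The comparison within the line asked which transcripts differed after diclofenac. The genes ANPEP, PLIN2 and HMOX1 rose with diclofenac. ANPEP, the membrane aminopeptidase known on myeloid cells as CD13, had intensities of 2285.8 and 2174.1 with diclofenac, against 601.2 and 586.2 with DMSO. PLIN2, a coat protein of lipid droplets, had 7040.7 and 7634.8 with diclofenac, against 2645 and 2584.4 with DMSO. HMOX1, the inducible heme oxygenase, had 3917.4 and 3975.5 with diclofenac, against 1739.1 and 1833.6 with DMSO. In each of these genes both diclofenac arrays lay far above both DMSO arrays, and the arrays of 1 group were close to each other.

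These differences were 3.56-fold for ANPEP (log2 change 1.83 with a standard error of 0.09 over 2 arrays per group, adjusted p of 0.011 by limma), 2.63-fold for PLIN2 (1.39 ± 0.08, 0.013) and 2.11-fold for HMOX1 (1.08 ± 0.07, 0.029). All log2 changes are diclofenac minus DMSO on the scale of log2(intensity + 50) after quantile normalization, which understates the change of dim genes. They were the 3 of 22215 probe sets (0.0135%), or of 11963 genes (0.0251%), whose Benjamini-Hochberg adjusted p was under 0.05, and 0 were lower by limma. By unadjusted p, here and below meaning a p under 0.05 before adjustment, 963 probe sets were higher and 963 lower (4.33% each, 8.67% together, and 9.23% of genes). Without quantile normalization that split was 723 higher and 1192 lower, and with array medians set equal it was 1262 and 472, so no balance of directions over all genes is read here. The groups did not overlap for 4453 probe sets with higher values (20%) and 4258 with lower values (19.2%). Leaving out any 1 of the 4 arrays left 0 probe sets past the test, with the adjusted p of ANPEP then at 0.21 to 0.31, while its log2 change stayed between 1.79 and 1.86. Without the intensity trend all 3 were at an adjusted p of 0.56, and with all 8 arrays in the fit PLIN2 was at 0.003, ANPEP at 0.056 and HMOX1 at 0.76. A dimmer PLIN2 probe set had 81.1 and 103.3 with diclofenac, against 144.5 and 139.3 with DMSO, and with the mean of both PLIN2 probe sets the change was 0.57 (adjusted p = 0.27).

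With the dimmest 40% of probe sets left out, an alternative listed with the design, 67 of 13329 probe sets (0.503%) passed, 40 higher (0.3%) and 27 lower (0.203%). They stood for 35 genes that were higher and 22 that were lower. The prior degrees of freedom that limma estimated were 10.9 there and 4.42 over all probe sets, and the log2 changes themselves were the same. In all 67 both diclofenac arrays lay beyond both DMSO arrays, against 42.2% of the 13329 probe sets in either direction. Selection by a small p from 2 arrays per group favours such separation, so it is no separate check. Since the larger set rests on that filter, its genes are described below as passing without the dim probe sets. Of the 57 genes, 24 had other probe sets, and in 8 of these at least 1 of the others had the opposite sign.

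**Figure D2:**
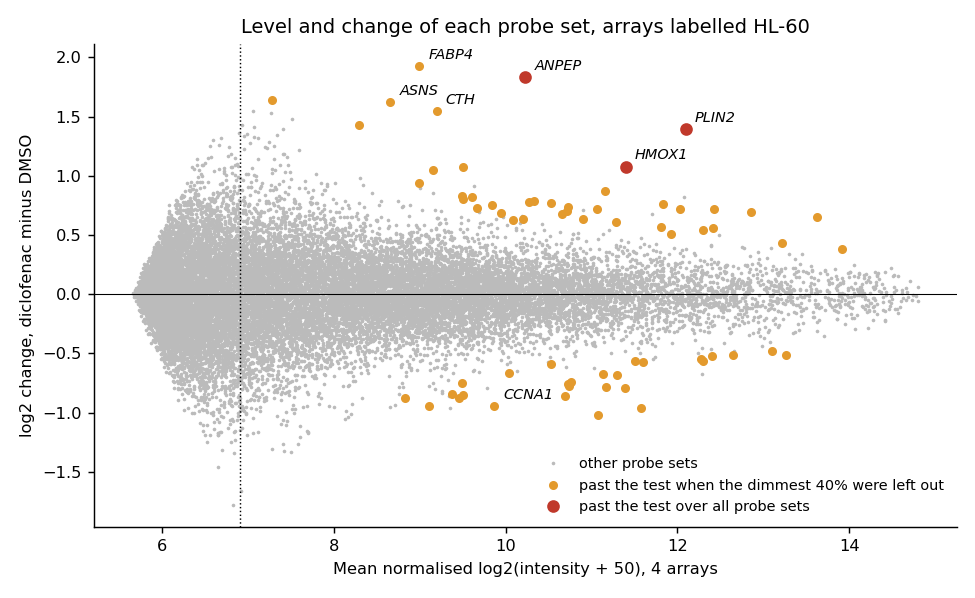
Each point is a probe set, with its mean normalised log2(intensity + 50) over the 4 arrays labelled HL-60 on the horizontal axis and its log2 change, diclofenac minus DMSO, on the vertical axis. The dotted line marks the level below which 40% of probe sets lie. The 3 probe sets past the test over all probe sets (red) are bright, and the spread of the grey points is widest among dim probe sets.

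Genes for amino acid synthesis and uptake were mostly higher with diclofenac, though their tests depended on the filter. The list for ATF4 and the amino acid response, called the ATF4 list below, also holds ATF4 itself and regulators such as CEBPB. It had 33 measured members, of which 26 had a log2 change above 0. At an unadjusted p under 0.05, 17 (51.5%) were higher and none was lower, against 4.77% higher and 4.46% lower of all 11963 genes. Both diclofenac arrays were above both DMSO arrays in 23 (69.7%, against 20.7% of all genes), and the median log2 change was 0.34, against 0.00 for all genes. None passed over all probe sets, and 7 of the 31 members kept passed without the dim probe sets (22.6%, against 0.395% of the 7851 genes kept). This list and those below were chosen with earlier results of these data known, so their shares are a description and not a test.

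ASNS makes asparagine from aspartate and is a known ATF4 target. Its intensity was 650.7 and 653.9 with diclofenac, against 208.1 and 173.2 with DMSO (log2 change 1.62 ± 0.16, adjusted p = 0.11 over all probe sets and 0.0011 without the dim ones). CTH makes cysteine from cystathionine and had 965.8 and 942.5 with diclofenac, against 249.1 and 376.3 with DMSO (1.54 ± 0.22, 0.28 and 0.0045). A second CTH probe set also lay higher on both diclofenac arrays, at 262 and 268.7, against 137.8 and 133.8. ATF4 itself was at 4981.5 and 5963.8, against 3148.1 and 3164.8 (0.72 ± 0.09, 0.17 and 0.0046). In these 3 genes no diclofenac value came near a DMSO value.

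The enzymes that build serine from a glycolytic intermediate followed the same direction. PHGDH, which takes the first step, had 1920.4 and 1889.6 with diclofenac, against 1125.9 and 1037.5 with DMSO (log2 change 0.77 ± 0.09). PSAT1, the transaminase after it, had 938.5 and 1071.2, against 620.7 and 557.2 (0.73 ± 0.12). The last enzyme, the phosphatase PSPH, had 759.3 and 658.3, against 568.4 and 558.7 (0.33 ± 0.12, unadjusted p = 0.029). MTHFD2, a mitochondrial folate enzyme, was at 6053.2 and 6376.3, against 3805.8 and 4260.2 (0.54 ± 0.07). PHGDH, PSAT1 and MTHFD2 passed without the dim probe sets (adjusted p of 0.013, 0.047 and 0.018), and PSPH did not. The 16 serine and one-carbon genes had a median of 0.07, and of the 11 that the ATF4 list does not hold 4 were above 0. Among these 11 the methionine synthase gene MTR had an unadjusted p under 0.05 (0.40 ± 0.10).

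Transporters of the list import the amino acids that the same pathway uses. SLC7A5, the light chain of a leucine and tryptophan carrier, had 2178.9 and 2042.2 with diclofenac, against 1206.6 and 1331.5 with DMSO (log2 change 0.70 ± 0.09, adjusted p = 0.019 without the dim probe sets). SLC7A11, the cystine carrier, had 1119.7 and 1306.4, against 745.9 and 765 (0.65 ± 0.12), and a second probe set passed without the dim ones (0.83, 0.031), while another, dimmer one overlapped between groups at 112.6 and 101.5, against 150.5 and 109.6 (-0.03). SLC7A1, which imports arginine and lysine, had 2515.2 and 2382.3, against 1839.3 and 1825.1 (0.38 ± 0.08, unadjusted p = 0.0031). Groups did not overlap in 8 of 16 amino acid transporter genes, all 8 higher (50%, against 20.7% of all genes), and the list's median was 0.18. The 6 members shared with the ATF4 list included the 4 with an unadjusted p under 0.05, and among the other 10 it was 0.

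Stress regulators of the list were less uniform. CEBPB, a partner of ATF4 at these elements, had 4691.1 and 4546.8 with diclofenac, against 3298.8 and 3444.7 with DMSO (log2 change 0.39 ± 0.08, unadjusted p = 0.0023). TRIB3, a pseudokinase that feeds back on ATF4, had 2567.9 and 2264.3, against 1137.7 and 1836.1 (0.71 ± 0.20, 0.011). DDIT3, which encodes CHOP, overlapped between groups with 327.7 and 125.3, against 166.9 and 152.8. ATF3 overlapped as well, with 104 and 72.5, against 115.6 and 65.8. DDIT4 was below DMSO on both arrays, at 508.3 and 505.2, against 710.1 and 600.3 (-0.30 ± 0.13, unadjusted p = 0.061). CHAC1, a glutathione-degrading enzyme, was not above background on any of the 4 arrays.

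Enzymes that charge tRNAs in the cytosol share no member with the ATF4 list. Of 17 measured, 16 had a log2 change above 0, 7 were higher at an unadjusted p under 0.05 (41.2%), 0 were lower, and the median was 0.31. Groups did not overlap in 12, all higher (70.6%). Over all genes 4.77% were higher by unadjusted p and 20.7% did not overlap with higher values. The differences were small, and none of the 17 passed with or without the dim probe sets. WARS1, the tryptophan enzyme, had 586.8 and 631.7 with diclofenac, against 369.6 and 363.4 with DMSO (0.71 ± 0.14). YARS1, the tyrosine enzyme, had 3529.4 and 3699.5, against 2388.3 and 2637.9 (0.47 ± 0.08). KARS1, the lysine enzyme, was the 1 member below 0 (-0.04 ± 0.09).

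**Figure D3:**
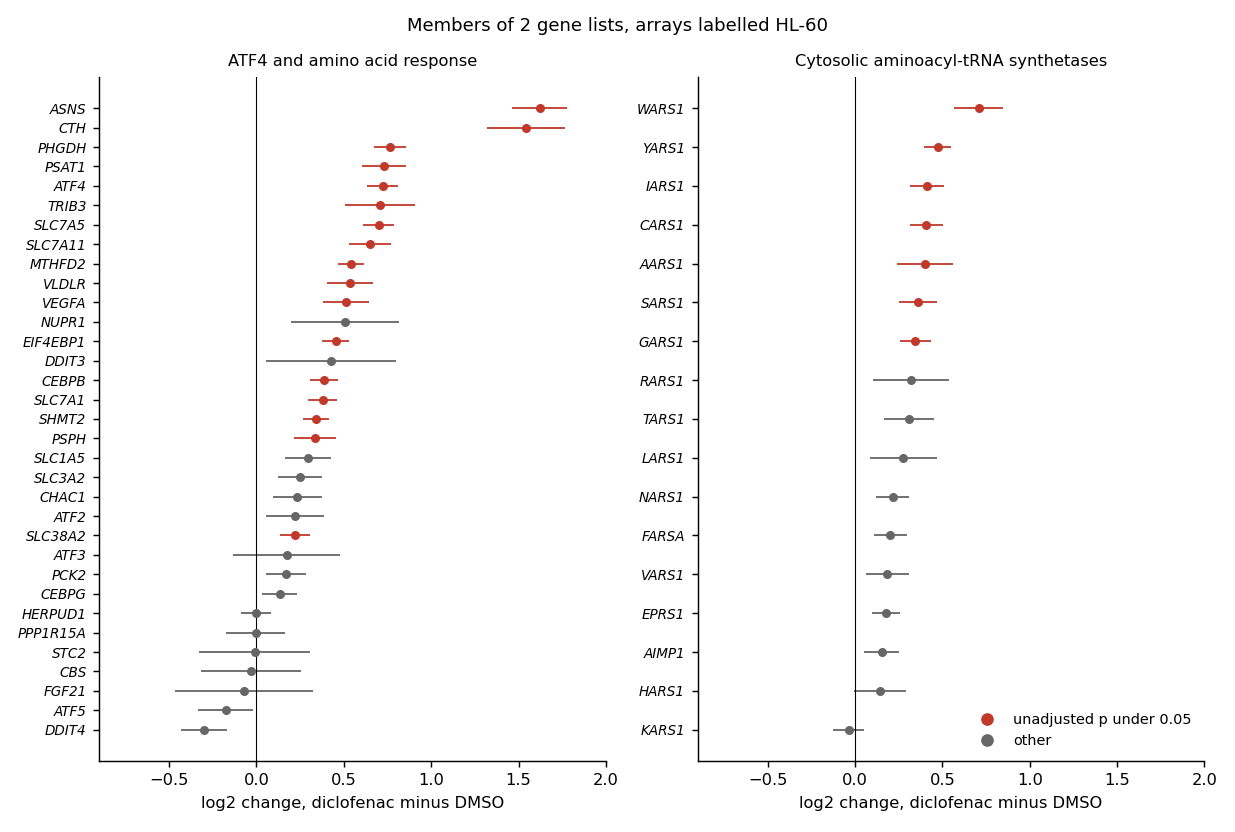
Log2 change, diclofenac minus DMSO, of each measured ATF4 list member (left, 33 genes) and of the cytosolic aminoacyl-tRNA synthetases (right, 17 genes), with bars for the standard error. Red marks an unadjusted p under 0.05. ASNS and CTH stand at 1.62 and 1.54, and KARS1 is the 1 synthetase below 0.

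Promoters of these genes are shown because the CARE motif is where ATF4 is known to bind. The motif was written TGATGNAA and searched on both strands in RefSeq promoters of build GRCh38.p14, from 250 bases before to 50 bases after the start site. The AP-1 motif TGANTCA was searched in the same way. Of 9563 measured genes with a promoter, 215 held CARE (2.25%) and 519 held the AP-1 motif (5.43%). On the ATF4 list 7 of 26 promoters held CARE (26.9%), among the synthetases 5 of 14 (35.7%), and among the amino acid transporters 4 of 14 (28.6%), of which 2 are also on the ATF4 list. AP-1 motifs were in 3 of 26, 0 of 14 and 3 of 14. Among the serine and one-carbon enzymes 0 of 14 promoters held CARE. The antioxidant response motif TGACNNNGC, also searched, was in 34.6%, 21.4% and 35.7% of the ATF4, synthetase and transporter promoters, against 14.9% of all. The lists come from gene classes near which ATF4 is known to bind CARE, so their CARE shares are no test. The 250 bases upstream of ASNS lie at chr7:97872409-97872658 on the minus strand, with the motif in capitals at position -68 from the start site.
ASNS: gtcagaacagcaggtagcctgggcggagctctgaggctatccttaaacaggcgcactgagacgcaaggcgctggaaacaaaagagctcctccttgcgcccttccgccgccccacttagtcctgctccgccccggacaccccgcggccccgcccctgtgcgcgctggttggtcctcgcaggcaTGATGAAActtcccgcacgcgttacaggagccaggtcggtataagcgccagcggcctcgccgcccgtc

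On the ATF4, synthetase and transporter lists 14 genes held the CARE motif. Groups did not overlap in 9, all higher, and overlapped in 5. Of all genes 20.7% did not overlap with higher values, but the 3 lists as wholes had 69.7%, 70.6% and 50%. The count therefore does not set genes with the motif apart from their lists. CHAC1, 1 of the 9, was above background on no array. Windows are given for all 5 that overlapped (ATF3, FGF21, HERPUD1, TARS1 and SLC1A3) and for some that did not, with the motif in capitals. In AARS1, CARS1, IARS1, TARS1, FGF21 and HERPUD1 it is on the opposite strand, so its reverse complement is printed.
SLC7A1 (chr13:29595663-29595692, minus strand): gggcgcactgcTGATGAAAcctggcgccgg
AARS1 (chr16:70289675-70289704, minus strand): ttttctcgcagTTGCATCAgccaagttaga
CARS1 (chr11:3057407-3057436, minus strand): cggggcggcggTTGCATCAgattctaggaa
IARS1 (chr9:92293692-92293721, minus strand): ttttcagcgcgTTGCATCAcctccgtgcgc
NARS1 (chr18:57621804-57621833, minus strand): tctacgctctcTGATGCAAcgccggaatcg
HERPUD1 (chr16:56931955-56931984, plus strand): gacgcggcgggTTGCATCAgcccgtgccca
ATF3 (chr1:212565205-212565234, plus strand): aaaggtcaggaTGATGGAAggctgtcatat
FGF21 (chr19:48755459-48755488, plus strand): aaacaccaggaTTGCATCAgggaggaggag
TARS1 (chr5:33440956-33440985, plus strand): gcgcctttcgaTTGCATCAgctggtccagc
SLC1A3 (chr5:36596357-36596386, plus strand): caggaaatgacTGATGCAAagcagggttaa

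Genes with these windows did not share a size of change. AARS1, the alanine enzyme, had 1457.9 and 1460.5 with diclofenac, against 1266.6 and 914.1 with DMSO (log2 change 0.40 ± 0.16). IARS1, the isoleucine enzyme, had 5818.9 and 6835.2, against 3992.8 and 4975.6 (0.41 ± 0.10). CARS1, the cysteine enzyme, was at 0.41 ± 0.09 and NARS1, the asparagine enzyme, at 0.22 ± 0.09. HERPUD1, a component of ER protein degradation, had 1413.6 and 1324.3, against 1324.9 and 1392.2 (0.00 ± 0.09). TARS1, the threonine enzyme, had 2131.5 and 2655.8, against 1642.5 and 2142 (0.31 ± 0.14). SLC1A3, a glutamate transporter, was at 0.04 ± 0.23 and ATF3 at 0.17 ± 0.31, while FGF21 was near background. Neither PHGDH, PSAT1, CTH nor ATF4 held the motif in this window. A match is a description of letters and says nothing of binding in these cells.

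PLIN2 and FABP4 had large changes, and the median of the lipid list they belong to was near 0. FABP4, a fatty acid chaperone of adipocytes and macrophages, had 1068.4 and 839.9 with diclofenac, against 271.2 and 174.2 with DMSO (3.80-fold, log2 change 1.93 ± 0.18, adjusted p = 0.11 over all probe sets and 0.00035 without the dim ones). Over 21 lipid droplet and fatty acid genes the median was 0.03. By unadjusted p 2 were higher and 2 lower (9.52% each, against 4.77% and 4.46% of all genes). FABP5, a close relative, had 9086.9 and 10391, against 8229.4 and 9249.2 (0.03 ± 0.08, 95% confidence interval -0.16 to 0.21). ACSL4, which activates arachidonic acid, was lower on both diclofenac arrays, at 316.6 and 515.7, against 638.8 and 938.3 (-0.81 ± 0.27, unadjusted p = 0.021). PLIN3 was at -0.04 ± 0.10 and the triglyceride lipase gene PNPLA2 at -0.03 ± 0.11.

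Targets of the fatty acid receptors of the PPAR family and genes of fatty acid oxidation formed 1 list, with a median of 0.14 over 23 genes. At an unadjusted p under 0.05, 4 were higher (17.4%, against 4.77% of all genes) and 1 was lower (4.35%, against 4.46%). ETFB passes electrons from fatty acid oxidation to the respiratory chain, and had 739.2 and 787.6 with diclofenac, against 318.4 and 400.5 with DMSO (log2 change 1.05 ± 0.17, adjusted p = 0.022 without the dim probe sets). TXNIP, a thioredoxin-binding regulator of glucose uptake, had 973.3 and 1019, against 592.4 and 500.6 (0.82 ± 0.12, 0.026). The carnitine transferase gene CPT1A, a common PPAR target, was lower on both diclofenac arrays, at 1561.7 and 1509.3, against 1891.2 and 1608 (-0.21 ± 0.12). PDK4 was not above background with diclofenac, at 19.5 and 7.6, against 67.1 and 41.6, and ANGPTL4 was below background on all 4 arrays.

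Cholesterol genes had a median of 0.11 over 18 members. By unadjusted p 4 were higher (22.2%, against 4.77% of all genes) and 1 lower (5.56%, against 4.46%). MSMO1, a sterol methyl oxidase, had 846.3 and 976.5 with diclofenac, against 506.3 and 510.8 with DMSO (log2 change 0.80 ± 0.13, adjusted p = 0.035 without the dim probe sets). HMGCS1, an early enzyme of the pathway, had 734.5 and 620.1, against 402.2 and 462.9 (0.64 ± 0.15). SQLE (0.26 ± 0.09) and the sterol sensor partner INSIG1 (0.36 ± 0.11) were also higher. MVD was not above background with diclofenac, at 18.3 and 8.2, against 72.4 and 103.1 with DMSO.

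HMOX1 belongs to the oxidant-response genes, which had no common direction. On the list of NRF2 targets, 3 of 25 were higher (12%, against 4.77% of all genes) and 4 lower (16%, against 4.46%) by unadjusted p. SLC7A11, given above, was among the higher ones with HMOX1. The list's median was -0.01, which became 0.10 relative to all genes without quantile normalization. The glutathione synthesis gene GCLC was at 889.4 and 913.6 with diclofenac, against 1269.2 and 1174.7 with DMSO (log2 change -0.43 ± 0.10). TXNRD1, a thioredoxin reductase, was at 2308.9 and 2257.8, against 2646.5 and 2716.2 (-0.26 ± 0.08). Heme and iron genes, to which HMOX1 also belongs, had a median of 0.11 over 18 genes, and groups did not overlap in 9 with higher values (50%, against 20.7% of all genes). BLVRB, a biliverdin reductase downstream of heme oxygenase, had 1283.4 and 1337.9, against 848 and 888.4 (0.56 ± 0.10, unadjusted p = 0.00086). The transferrin receptor gene TFRC had 8885.9 and 9416.2, against 6109.6 and 7687.9 (0.30 ± 0.10).

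**Figure D4:**
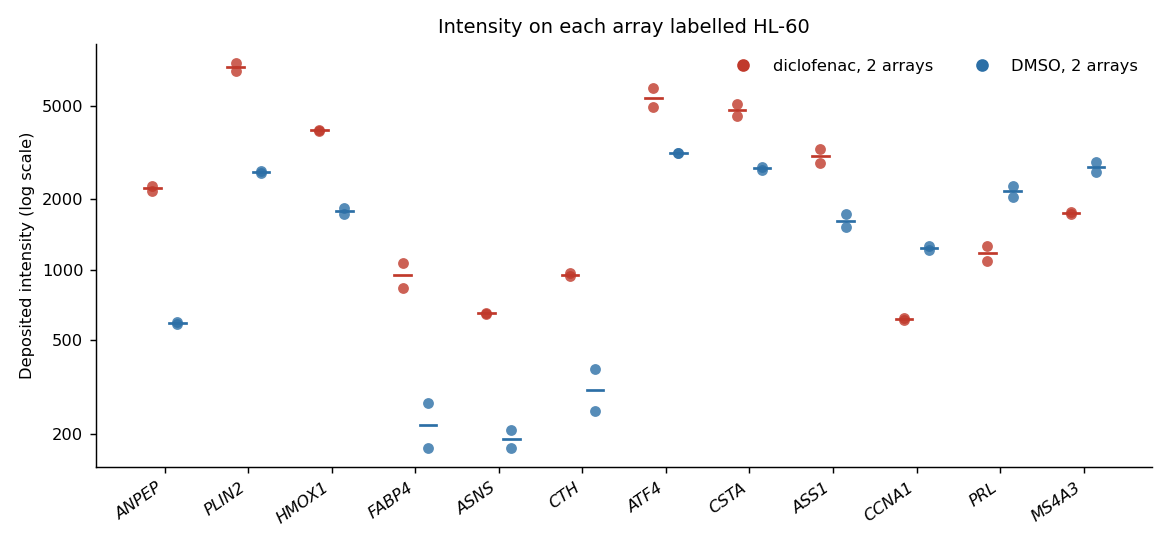
Deposited intensity (log scale) of 12 genes on the 4 arrays labelled HL-60, with diclofenac (red) left of DMSO (blue), points for arrays and short lines for the geometric mean of a group. In ANPEP, PLIN2, HMOX1, FABP4, ASNS and CTH the diclofenac points lie far above the DMSO points, and in CCNA1, PRL and MS4A3 they lie below.

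Monocyte and granule genes included members with higher and with lower values. Of 35 monocyte and macrophage genes, which include ANPEP, 3 were higher (8.57%) and 2 lower (5.71%) by unadjusted p. These shares were near the 4.77% and 4.46% of all genes, and the median was 0.16. Groups did not overlap in 13 with higher values (37.1%, against 20.7% of all genes) and in 4 with lower values (11.4%, against 19.3%). CSTA, an inhibitor of cysteine proteases found in myeloid cells, had 4539.5 and 5100 with diclofenac, against 2756.8 and 2676.2 with DMSO (log2 change 0.76 ± 0.08, adjusted p = 0.0039 without the dim probe sets). CD14 had 3.2 and 28.9, against 6.7 and 4.1, below background throughout, so no fold is given. ITGAM, which encodes the integrin CD11b, had overlapping deposited intensities of 287 and 249.6, against 262.9 and 225.4 (0.19 ± 0.20, 95% confidence interval -0.28 to 0.67). TYROBP, a signalling adaptor, was lower at 293.3 and 325.9, against 559.4 and 422.3 (-0.52 ± 0.18).

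Primary granule and promyelocyte genes had a median of -0.09 over 20 genes, with 2 higher (10%, against 4.77% of all genes) and 5 lower (25%, against 4.46%) by unadjusted p. The sign of that median depended on the scaling, since relative to all genes it was 0.03 on the deposited scale. MS4A3, a membrane protein of granulocyte precursors, had 1770.2 and 1734.9 with diclofenac, against 2618.4 and 2890.5 with DMSO (log2 change -0.67 ± 0.08, adjusted p = 0.013 without the dim probe sets). CTSG, a granule protease, had 11412 and 13745, against 14182 and 14030 (-0.35 ± 0.08, unadjusted p = 0.0035). AZU1, which encodes azurocidin, had 1259.8 and 1177.8, against 1622.3 and 1533.4 (-0.37 ± 0.09). ELANE overlapped between groups. CFD, the complement protease adipsin, went the other way, with 1117.5 and 1181.6, against 680 and 647.3 (0.76 ± 0.10, 0.026).

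Among genes with lower values, CCNA1 and PRL had small unadjusted p-values. CCNA1, a cyclin of germ cells and myeloid leukemia, had 621.1 and 609.9 with diclofenac, against 1262.3 and 1217.4 with DMSO (log2 change -0.94 ± 0.10, adjusted p = 0.0064 without the dim probe sets). PRL, the gene of the hormone prolactin, had 1263 and 1095.5, against 2041.1 and 2291.6 (-0.86 ± 0.10, 0.0053). GALNT2, which starts O-glycosylation, had 1605.9 and 1829.5, against 2906.9 and 2949.2 (-0.78 ± 0.10, 0.0064). A dimmer GALNT2 probe set overlapped between groups, at 339.4 and 454.4, against 514.7 and 442.8 (-0.21). The kinesin gene KIF20B had 446.5 and 429.8, against 838.6 and 838.8 (-0.84 ± 0.11, 0.026). In CCNA1, PRL, KIF20B and the brighter GALNT2 probe set every DMSO value was above every diclofenac value, as in 19.3% of all genes. Only genes whose groups did not overlap were ranked, so this separation follows from the naming rule.

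Larger negative changes lay mostly near the background, and so did several of the larger positive ones. The 12 genes with the largest negative log2 change, -1.46 to -1.17, had diclofenac intensities of at most 122.9, and 7 of them were above background on neither diclofenac array. In deposited intensity all 12 were higher on DMSO replicate 1, the brighter array with the higher background, than on DMSO replicate 2, and whether that background enters these differences was not tested. PRDM14, for instance, had 6.5 and 11.4 with diclofenac, against 160.4 and 96.6 with DMSO, and was at least 1.66-fold lower. The bound uses the lowest signal that can be told from background, and the 7 bounds ran from 1.42-fold to 1.82-fold. Of the 12 genes with the largest positive log2 change, 1.32 to 1.93, 5 were above background on all 4 arrays. TNFSF14, TIMP2, TNNT1, KIAA0319L and PCSK7 were above it on 1 DMSO array. CTRC and TRANK1 were above it on neither DMSO array, and were at least 2.28-fold and 1.98-fold higher.

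The AP-1 transcription factors bind DNA as pairs of JUN and FOS proteins. JUN had 4 probe sets, all higher with diclofenac on both arrays. Its representative, the brightest that is not prone to cross-hybridisation by name, had 353.2 and 296.9, against 257.3 and 229.4 (log2 change 0.43 ± 0.19, unadjusted p = 0.061). Another had 457.8 and 451.8, against 110.2 and 209.5, and passed without the dim probe sets (1.43, adjusted p = 0.039). A dimmer one was at 122.6 and 140.4, against 29.6 and 26.5 with DMSO, where it was below background. The brightest, at 1190.6 and 1129.2, against 959.1 and 816, differed by 0.36. The size of the JUN difference thus depended on the probe set. FOS had 162.2 and 191.9, against 184.8 and 139.3 (0.24 ± 0.26, 95% confidence interval -0.39 to 0.86). Of 15 AP-1 genes, 1 was higher (JUND, 0.31 ± 0.10) and 1 lower (BATF, -0.26 ± 0.09) by unadjusted p. These were 6.67% each, against 4.77% and 4.46% of all genes.

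Growth factor feedback genes had 1 member past the test without the dim probe sets. DUSP6, a phosphatase that switches off ERK, had 2680.3 and 2779.4 with diclofenac, against 1576.8 and 1644.6 with DMSO (log2 change 0.72 ± 0.08, adjusted p = 0.0081 without the dim probe sets). A second DUSP6 probe set overlapped, at 2048.9 and 1699.8, against 1262.2 and 1907.7, and the remaining one differed by 0.41. The median of the 27 immediate early and ERK feedback genes was -0.05. EGR3 and CCN1 were not above background with diclofenac.

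The genes of the drug's targets did not pass the test. PTGS1, which encodes cyclooxygenase 1, had 648.4 and 663.9 with diclofenac, against 709.8 and 633.7 with DMSO (log2 change 0.00 ± 0.12, 95% confidence interval -0.28 to 0.29), and another PTGS1 probe set was at -0.24. PTGS2, which encodes cyclooxygenase 2, had 50.2 and 34.3, against 84.8 and 34.6, near background in both groups. Over 26 prostaglandin and leukotriene genes the median was -0.02. By unadjusted p 3 were higher (11.5%, against 4.77% of all genes) and 1 lower (3.85%, against 4.46%), 3 of these 4 at or near background. The exception was ALOX5AP, the partner of 5-lipoxygenase, with 5650.8 and 5889.7, against 4590.5 and 4610.1 (0.26 ± 0.08, 0.013).

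Lists of cell cycle genes had medians close to 0. MYC was at 2713.6 and 2709.7 with diclofenac, against 2741.5 and 2640.5 with DMSO (log2 change -0.03 ± 0.08, 95% confidence interval -0.22 to 0.17). CDKN1A, the cell cycle inhibitor p21, overlapped at 329 and 196.4, against 272 and 208 (0.17 ± 0.25, -0.44 to 0.78). Of 39 mitosis genes 0 were higher and 4 lower (10.3%) by unadjusted p, with a median of -0.01. Of 39 DNA replication genes 3 were higher (7.69%) and 2 lower (5.13%). Over all genes these shares were 4.77% higher and 4.46% lower. The death receptor gene TNFRSF21 had 1578.9 and 1586.6, against 851.8 and 950.8 (0.78 ± 0.10, adjusted p = 0.016 without the dim probe sets). PMAIP1, which encodes the BCL2 antagonist NOXA, had 678.4 and 598, against 482 and 442.2 (0.46 ± 0.13, unadjusted p = 0.0093). Bulk arrays cannot tell fewer cells of a kind from less RNA per cell, here or in the groups above.

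ER chaperone genes had mostly lower values with diclofenac, and none passed the test by its representative probe set. Of 22 genes 0 were higher and 3 lower (13.6%, against 4.46% of all genes) by unadjusted p. Both diclofenac arrays were below both DMSO arrays in 10 (45.5%, against 19.3% of all genes). The median of -0.12 was -0.02 relative to all genes without quantile normalization. CRELD2, a secreted ER stress marker, had 1220.1 and 1198.3 with diclofenac, against 1650.2 and 1654.9 with DMSO (log2 change -0.45 ± 0.09, unadjusted p = 0.0015). HSP90B1, an ER chaperone, had 732 and 868.2, against 1048.8 and 983.6 (-0.33 ± 0.13). A probe set of the ER gene PDIA6, prone to cross-hybridisation by name, passed without the dim ones (-0.51, adjusted p = 0.026 by limma). The other PDIA6 probe sets were at -0.14, -0.46 and -0.20.

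**Figure D5:**
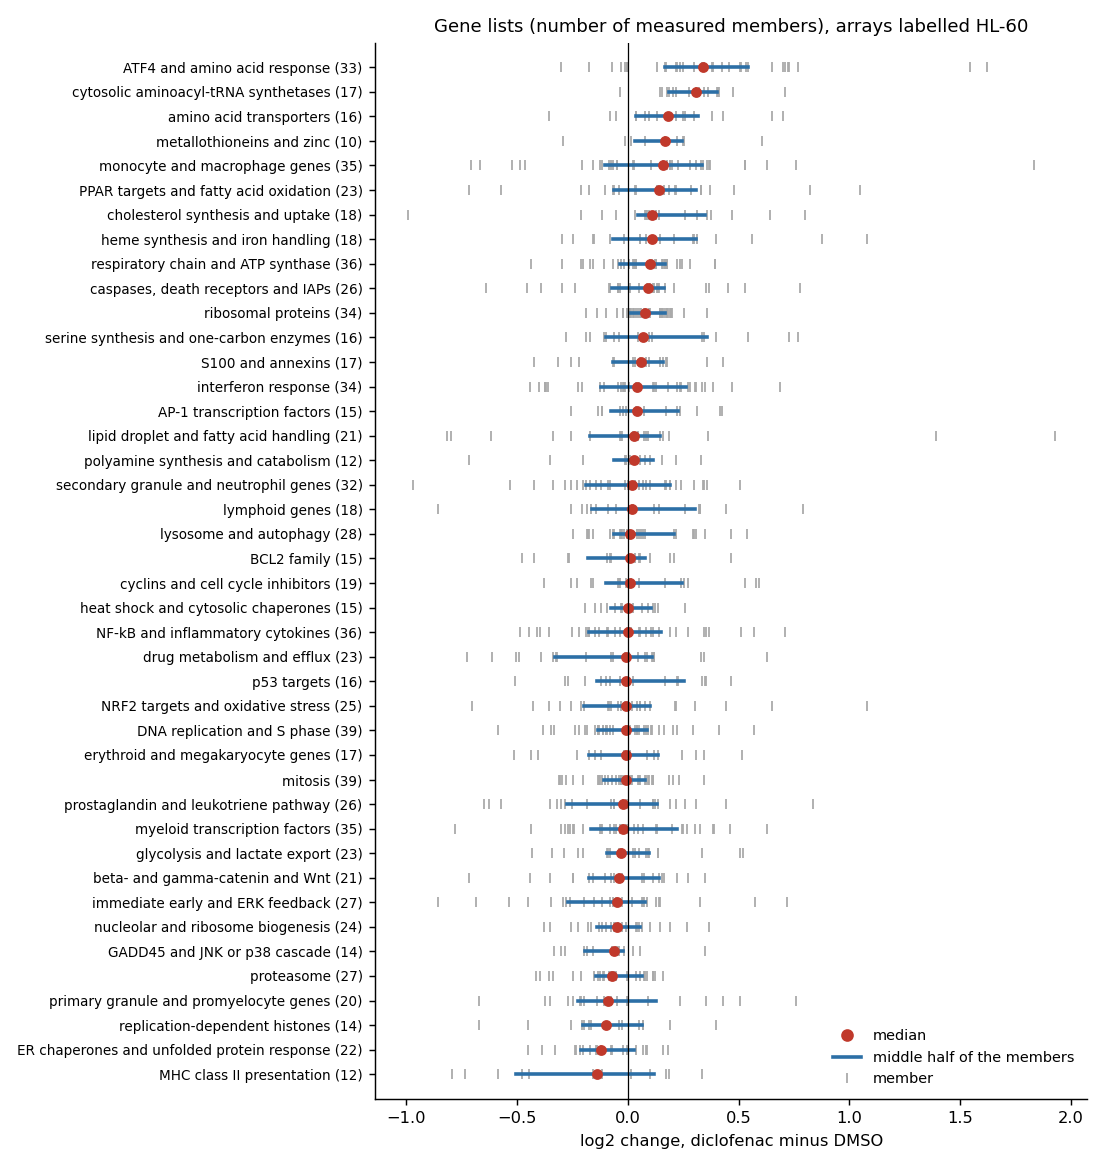
Log2 change, diclofenac minus DMSO, of the measured members of 42 gene lists on the arrays labelled HL-60, with grey ticks for members, blue bars from the lower to the upper quartile and red points for the median. The number of measured members is in brackets. The ATF4 and synthetase lists lie highest, with medians of 0.34 and 0.31, and the other medians lie within 0.2 of 0.

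The arrays labelled THP-1 had the same treatments, and a test of the difference between the lines used all 8 arrays. THP-1 DMSO replicate 2 stood apart, with a median intensity of 241.2, a background of 238.6 and 50.32% of probe sets above it. For the 3 genes past the test on the arrays labelled HL-60 no difference between the lines passed. In this fit PLIN2 had a log2 change of 1.36 on the arrays labelled HL-60, with 1.54 on those labelled THP-1, that of ANPEP 1.81 and 1.14, and that of HMOX1 1.07 and 1.41, with adjusted p of 0.77, 0.67 and 0.84 for the difference. ASNS had nearly equal changes in both lines, 1.58 and 1.61, and once the deviating THP-1 array was left out the THP-1 value was 1.00 and that of HMOX1 0.93. CTH had 0.03 in THP-1 (difference 1.48, adjusted p = 0.57), ATF4 0.13 (0.58, 0.57) and PHGDH 0.02 (0.74, 0.34). ASS1, which makes argininosuccinate, was higher on the arrays labelled HL-60, at 2861.6 and 3271 with diclofenac, against 1522 and 1735.6 with DMSO, and had -0.30 in THP-1 (difference 1.16, adjusted p = 0.12). ANXA1, an annexin abundant in myeloid cells, had 0.14 ± 0.08 on the arrays labelled HL-60 and 1.48 on those labelled THP-1 (difference -1.34, adjusted p = 0.071, and -1.40 with 0.028 if the deviating array is left out).

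The difference between the lines passed for 1 of 22215 probe sets (0.0045%), and 1545 had an unadjusted p under 0.05 (6.95%, and 7.32% of genes). That probe set belongs to MTDH, a membrane protein of the ER and nucleus. It had 2190.8 and 2128 with diclofenac, against 3759.2 and 4453.8 with DMSO on the arrays labelled HL-60, and 1587.9 and 1787 with diclofenac, against 854.6 and 892.6 with DMSO on those labelled THP-1. It was thus lower with diclofenac on both arrays labelled HL-60 and higher on both labelled THP-1 (difference -1.79 ± 0.15, adjusted p = 0.04, and -1.87 with 0.028 if the deviating array is left out). The other MTDH probe sets on the HL-60 arrays were at 0.13 and -0.08. With any HL-60 array or either THP-1 diclofenac array left out, there were 0 probe sets past this test, and 4036 without THP-1 DMSO replicate 1.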

How the data were processed

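The values were the intensities per probe set that the authors deposited, linear and not log-transformed. The trimmed mean was 500.1 to 500.2 on each array, and the software is not given in the sources used here. Per the labels, biotin-labelled cRNA was made from 10 µg of total RNA for an Affymetrix array. Of 22277 probe sets 62 controls were left out. With an offset of 50, log2 values were quantile normalized over the 4 arrays and fitted with limma 3.58.1 in R 4.3.3 (lmFit, eBayes with an intensity trend, 2 residual degrees of freedom). Adjustment was by Benjamini-Hochberg over 22215 probe sets, and errors are moderated standard errors. The line difference is the interaction over 8 arrays. A gene stands for its brightest probe set, with those ending in _x_at used only for 460 genes without another. The platform annotation gave 1 symbol to 19064 probe sets, several to 1043 and none to 2108. A gene below background on both arrays of a group has a lower bound instead of a fold. Replicate numbers were not taken to pair arrays, since the labels do not say that they pair cultures. Deviations of same-numbered arrays had a correlation of 0. The fit was tested on simulated data.

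Genes were named by rule: those past the test, the 12 per direction with the smallest p and the 12 with the largest change. The rule also took up to 5 members per list, 16 key genes and those with the smallest p of the line difference, with their other probe sets. Apart from key and line difference genes, a gene named by rule had groups that do not overlap and its higher group above background. The other members of a list that are named, CHAC1, HERPUD1, NARS1, TARS1, FGF21, SLC1A3 and KARS1 among them, and genes named from the fit without dim probe sets were picked with their values known. The members and the 42 lists, with 909 of 1048 genes measured, were chosen with earlier results of these data known. The promoter windows were chosen after the data were seen.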

Additional observations from a re-analysis of the deposited data

Results flagged for a closer look

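The response of 1 MTDH probe set differed between the arrays labelled HL-60 and those labelled THP-1 by the interaction test (log2 difference -1.79, limma adjusted p = 0.04). It was lower with diclofenac on 2 of 2 HL-60 arrays and higher on 2 of 2 THP-1 arrays, while the other 2 MTDH probe sets changed by 0.13 and -0.08 on the HL-60 arrays. The groups of 2 arrays were too small for a test of outlying samples.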

How the results depend on the processing

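Against 3 probe sets past the test on the arrays labelled HL-60, 7 passed with each array centred on its median, 6 with an offset of 16 or with none, 67 without the dimmest 40%, 5 with the replicate block, 1 with all 8 arrays in the fit and 0 without the intensity trend. Leaving out each array in turn gave 0 to 0. Counts at an unadjusted p under 0.05 were 1926, and 1001 with all 8 arrays, and 1370 to 2874 with an array left out. Groups did not overlap for 8711, and for 5627 without the dimmest 40%, where fewer probe sets were tested, and 14818 to 16335 with an array left out, where fewer arrays must agree. The non-overlapping probe sets were 4453 higher and 4258 lower, on the deposited scale 3224 higher and 5648 lower, and with centring 6316 higher and 2550 lower. The line difference passed for 1 probe set, for 2 on the deposited scale, for 0 with centring, without the trend or with the replicate block, and for 0 to 4036 with an array left out. The 4036 came without THP-1 DMSO replicate 1, which leaves the deviating replicate 2 alone, and 4 (ANXA1, DENND4B, S100P and MTDH) came without replicate 2. The replicate numbers share only a number.

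Of 169 genes followed, 152 had a value under all 13 alternatives, and 138 of these kept their direction. The other 17 were too dim for 1 alternative, and 15 of them kept it under the remaining 12. The median of all genes moved by -0.06 on the deposited scale and 0.11 with centring. On the deposited scale PTGS1 turned to -0.03 and MYC to 0.01. With centring PDIA3 turned to 0.05, DDX21 to 0.01, PKM to 0.03, MYC to 0.17, NPTN to 0.07 and LAP3 to 0.02. With probe sets averaged per gene MYB turned to 0.09, VDR to -0.16, CTSB to -0.07, HEXA to -0.24, PTGS1 to -0.20 and ITGAM to -0.01. Leaving out 1 array gave CDKN1A -0.10 to 0.43, CD14 -0.02 to 0.65 and MYC -0.09 to 0.04, and turned GPNMB to -0.01, PTGS1 to -0.04 and -0.07, and PTGS2 to 0.09 and 0.18. The causes were not tested.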

Other observations

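Respiratory chain and ATP synthase genes had a median log2 change of 0.10 over 36 genes. Both diclofenac arrays were above both DMSO arrays in 19 (52.8%, against 20.7% of all genes). With an unadjusted p under 0.05, 5 members were higher (13.9%, against 4.77% of all genes) and 3 members lower (8.33%, against 4.46%). NDUFB3, a complex I subunit, had 2888.8 and 2792.6 with diclofenac, against 2035.7 and 2179.2 with DMSO (0.39 ± 0.08). NDUFA9, another complex I subunit, went the other way, at 1401.8 and 1136.3, against 1806 and 1607.7 (-0.44 ± 0.13). Ribosomal protein genes had a median of 0.08 over 34 genes, and 0.34 relative to all genes on the deposited scale. Over 28 genes of lysosomes and autophagy the median was 0.01. By unadjusted p 7 genes were higher (25%, against 4.77% of all genes) and 1 gene lower (3.57%, against 4.46%). PSAP, the precursor of the saposins, had 2055.4 and 1992.1, against 1370.1 and 1487.1 (0.46 ± 0.08). None of these members passed over all probe sets or without the dim ones.

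The chemokine genes CCL2 and CCL5 were higher on both diclofenac arrays, and their list as a whole had no shift. CCL2 had 3986.7 and 4887.9 with diclofenac, against 2999.9 and 2682.7 with DMSO (log2 change 0.57 ± 0.12, adjusted p = 0.046 without the dim probe sets). CCL5 had 2753.9 and 2570.7, against 1828.5 and 1782.2 (0.51 ± 0.09, unadjusted p = 0.00076). The median of 36 inflammatory genes was 0.00. IFI6, an interferon-stimulated gene, had 1281.6 and 1130.7, against 698.2 and 770.2 (0.69 ± 0.11, adjusted p = 0.045 without the dim probe sets), and 34 interferon genes had a median of 0.04. Proteasome genes had a median of -0.07 over 27, and relative to all genes that median was 0.04 on the deposited scale. By unadjusted p 0 of them were higher and 3 lower (11.1%, against 4.46% of all genes).

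Several genes had probe sets that disagreed. RAB27A, a vesicle traffic GTPase, had 1 probe set past the test without the dim ones at -0.52 and others at -0.20, 0.27 and 0.18. SMARCC1, a chromatin remodelling subunit, had 1 at -0.56 and others at -0.02, -0.11 and -0.17. SRSF11, a splicing factor, had 1 at 0.69 and others at -0.30 and 0.21. Whether these probe sets read different transcripts was not tested.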
